A study of Mus musculus with 6 samples.

Results

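Growth hormone acts on muscle through the genes described here, which are the growth hormone receptor *Ghr*, the transcription factors *Stat5a* and *Stat5b*, the inhibitors *Cish* and *Socs2*, the growth factor *Igf1*, its receptor *Igf1r*, and the binding proteins *Igfbp3*, *Igfbp4* and *Igfbp5*. These 10 genes, of 20632 in the deposited table, were chosen by their place in the pathway. *Cish* and *Socs2* were also selected on their lower expression in these same mice, so their difference between genotypes is given as a description without a test. RNA was sequenced from the muscles of the hind limb (quadriceps, soleus, gastrocnemius, extensor digitorum longus and tibialis anterior) of male mice aged 3 months (C57BL/6 in the labels, C57BL/6J in the study's methods) that had not been exercised. There were 3 Baf155WT mice, which carry the floxed *Baf155* allele without Cre (Baf155f/f), and 3 Baf155ΔMF mice (MCK-Cre; Baf155f/f), labelled as wild type and Baf155 -/- respectively. Both genotypes carried the floxed allele. The MCK promoter drives Cre in skeletal and also in cardiac muscle fibres, so the other cells of the muscle keep *Baf155*, a subunit of the SWI/SNF chromatin remodelling complex encoded by *Smarcc1*.

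Growth hormone binds its receptor at the cell surface and activates the kinase JAK2, which phosphorylates STAT5A and STAT5B. Phosphorylated STAT5 enters the nucleus and switches on *Cish*, *Socs2* and, in liver and muscle, *Igf1*. The products of *Cish* and *Socs2* then dampen signalling at the receptor, and IGF1, made by muscle fibres and by other cells of the muscle, acts on the IGF1 receptor under the control of the IGF binding proteins. STAT5 acts through phosphorylation, which RNA does not measure.

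Both STAT5 proteins are known to bind the letters TTCNNNGAA, a palindrome read the same on both strands and also bound by other STATs. This motif was searched in RefSeq promoter windows of GRCm38.p6 that run from 250 bases before to 50 bases after each start site. At least 1 match was present in 2726 of 32851 windows (8.3%), and at least 2 matches in 150 windows (0.457%). A window was listed for 9 of the 10 genes, in 12 windows in all, with none for *Socs2*. Only the window of *Cish* held matches. Its 2 matches started at positions 1 and 12, counted from the start site as 1, with 2 bases between them. Neither lay in the 250 bases before that start site. In GENCODE M21 the annotated gene begins farther upstream, at chr9:107296026. The stretch at chr9:107296654-107296683 on the + strand is printed because it holds both matches, which are in capitals.
Cish: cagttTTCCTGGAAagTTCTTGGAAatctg
A match describes the letters in the window only, and binding was not measured in these samples.

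Libraries held between 8426053 and 12469347 counts, and the smallest level taken as measurable, 3 counts, was 0.230 to 0.351 CPM (counts relative to the library total, after TMM normalization), a limit that covers counting error only. *Smarcc1* checked the labels, with 19.96 ± 3.26 CPM in Baf155WT and 7.10 ± 0.590 CPM in Baf155ΔMF muscle (SD, n = 3 mice), a log2 fold change of -1.49 (SE 0.15, adjusted p = 0.00907, edgeR quasi-likelihood test). The 6 myofibre markers summed to 105200 to 108400 CPM in Baf155WT and 100800 to 106100 CPM in Baf155ΔMF mice, and satellite cell markers to 3.98 to 5.30 CPM over all mice. Within the myofibre sum, 2 of 6 markers had a log2 fold change below 0. *Myh1* (0.49) and *Myh2* (0.38) were higher at an unadjusted p under 0.05 (3.35% of all genes), each with an adjusted p of 0.601 in edgeR. Sample titles begin with MS13, MS14 or MS15, which the labels do not explain. MS13 was shared by 1 Baf155WT mouse and 2 Baf155ΔMF mice, whereas the other Baf155WT mice (n = 2) were MS15 and the remaining Baf155ΔMF mouse was MS14, so for these 3 mice genotype and prefix cannot be told apart. On the first principal component (43.3% of the variance), the MS13 Baf155WT mouse (-13.4) lay beside the MS13 Baf155ΔMF mice (-17.1 and -15.4) and away from the MS15 Baf155WT mice (25 and 22.5). The MS14 Baf155ΔMF mouse (-1.56) lay between the MS13 and the MS15 mice. For the 10 genes, and for other genes of the pathway with an unadjusted p under 0.05, values are therefore also given within MS13.

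All 10 genes passed the filter on low counts. Among the 8 genes whose direction was not part of the choice, none had an adjusted p under 0.05 in edgeR, DESeq2 or limma-voom, against 0.0248% of the 12116 genes tested in edgeR. At an unadjusted p under 0.05, 1 of the 8 was lower in Baf155ΔMF muscle (4.6% of all genes) and 0 were higher (3.35% of all genes), and each of the other two tools also passed 1 of the 8 at this limit. The median log2 fold change of the 8 genes was -0.05, and that of all genes tested was -0.00095. *Cish* and *Socs2*, chosen as lower, were the 2 of 10 members whose 3 Baf155ΔMF values all lay below the 3 Baf155WT values, a pattern seen in 5.57% of all genes. None of the 10 had all Baf155ΔMF values above all Baf155WT values (5.2% of all genes). The smallest p that exact permutation of 3 mice against 3 allows is 0.1, for any gene taken alone.

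**Figure D1:**
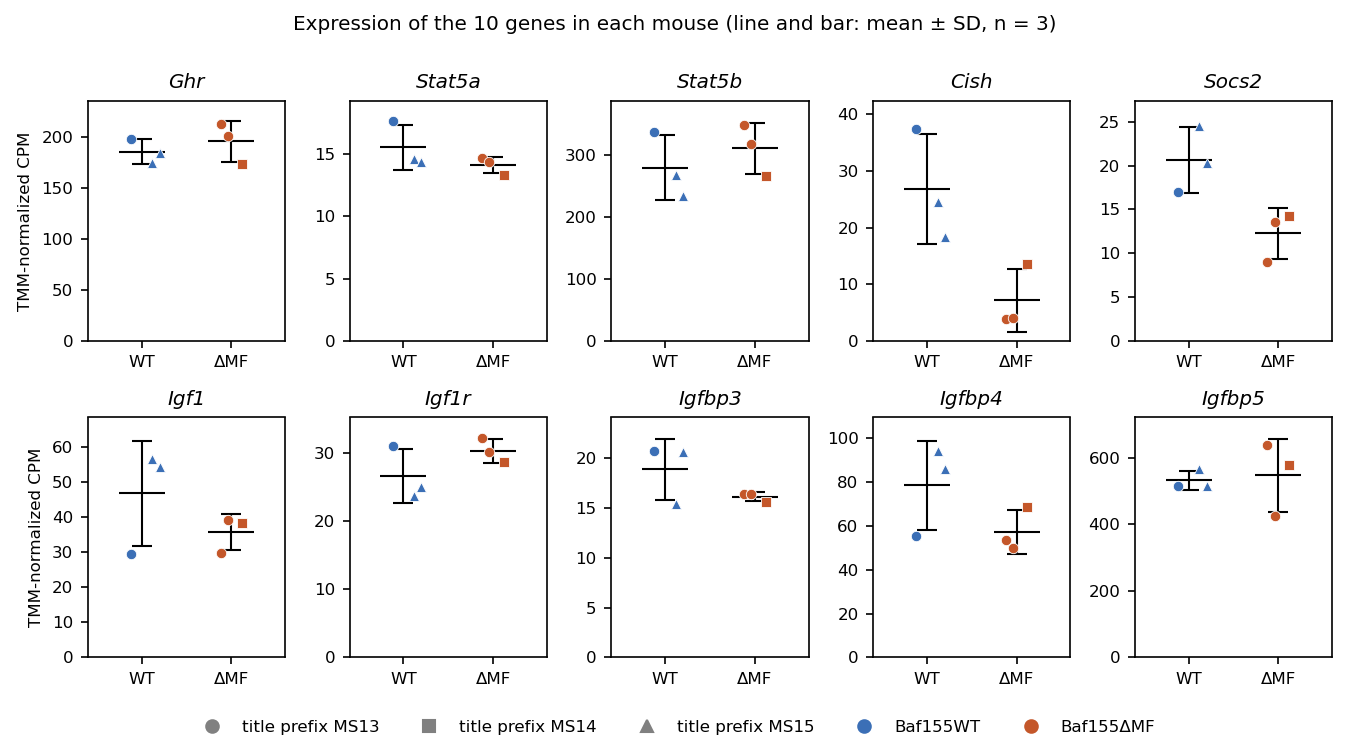
Expression of the 10 genes in TMM-normalized CPM on axes that start at 0, with 1 point per mouse, the colour giving the genotype and the shape the title prefix. Lines and bars are the mean ± SD of 3 mice. *Cish* and *Socs2* are the genes in which the genotypes do not overlap, and the MS13 Baf155WT mouse is the lowest of its genotype for *Igf1* and *Igfbp4*.

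*Ghr*, the receptor (chr15:3317760-3583492), differed little between mice. Its expression was 199, 175 and 185 CPM in the Baf155WT mice and 213, 201 and 174 CPM in the Baf155ΔMF mice, where mice are listed here and for each gene as MS13, MS15, MS15 and then MS13, MS13, MS14. The genotypes overlapped, with the highest and the lowest mouse both Baf155ΔMF. In Baf155ΔMF relative to Baf155WT muscle, the log2 fold change was 0.08 (SE 0.10, 95% interval -0.15 to 0.30, adjusted p = 0.835, edgeR), and it was 0.06 within MS13. The ratio of the highest to the lowest Baf155WT mouse was 1.14, smaller than for any other of the 10 genes but *Igfbp5*.

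*Stat5b* (chr11:100780731-100850724) was the main STAT5 transcript. Its expression was 337, 268 and 234 CPM in Baf155WT mice and 349, 318 and 267 CPM in Baf155ΔMF mice. In both genotypes the MS13 mice held the higher values, and the genotypes overlapped. The fitted log2 fold change was 0.16 (SE 0.14, 95% interval -0.16 to 0.47, adjusted p = 0.754, edgeR), and within MS13 it was -0.02. *Stat5a* (chr11:100859351-100885169), which lies beside it, was measured at 17.6, 14.6 and 14.4 CPM in Baf155WT mice and 14.6, 14.3 and 13.3 CPM in Baf155ΔMF mice. The MS13 Baf155WT mouse was the highest, and the other 5 mice lay close together. Its log2 fold change was -0.13 (SE 0.12, 95% interval -0.40 to 0.13, adjusted p = 0.749, edgeR) and was -0.28 within MS13. *Stat5b* made up 95.03%, 94.8% and 94.2% of the summed STAT5 CPM in Baf155WT mice and 96.0%, 95.7% and 95.2% in Baf155ΔMF mice. Each Baf155ΔMF share was above each Baf155WT share, a pattern noticed after the values were seen and not tested.

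The pair share sequence, which bears on how reads were divided between them. Of the 31-base words in their coding transcripts, 836 were common to both, which is 20.2% of those of *Stat5a* and 15.2% of those of *Stat5b*. Both had fractional estimated counts in all 6 mice, whereas the other 8 genes had whole counts (within 1e-06) in every mouse. *Stat5a* also overlaps *Stat3* on the opposite strand. The libraries were stranded, but whether the counting used strand is not given in the sources used here, so the counts of *Stat5a* may or may not hold reads of *Stat3* from the overlap.

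*Cish* (chr9:107296026-107302784) encodes a protein of the SOCS family that binds the activated receptor and competes with STAT5. It had 385, 321 and 206 counts in Baf155WT mice and 36, 39 and 116 counts in Baf155ΔMF mice. Scaled to CPM these were 37.4, 24.6 and 18.4 against 3.84, 4.05 and 13.6. The MS13 Baf155ΔMF mice were far below every Baf155WT mouse, whereas the MS14 Baf155ΔMF mouse lay between them and the lowest Baf155WT mouse. Mean *Cish* was 26.8 ± 9.71 CPM in Baf155WT and 7.15 ± 5.55 CPM in Baf155ΔMF muscle, or 26.7% of the Baf155WT mean. This was a log2 fold change of -1.92 (SE 0.40), which was -3.24 within MS13 and -2.75 without the MS14 mouse. The annotated gene overlaps the pseudogene *Gm17040* and the antisense gene *Gm17041*, both on the other strand, with the same limit.

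*Socs2* (chr10:95385362-95417180), which encodes part of a ubiquitin ligase that acts on the growth hormone receptor, differed by less and more evenly. Its expression was 17.0, 24.6 and 20.3 CPM in Baf155WT mice, from 175, 321 and 228 counts. It was 8.97, 13.6 and 14.3 CPM in Baf155ΔMF mice, from 84, 131 and 122 counts. The highest Baf155ΔMF mouse was below the lowest Baf155WT mouse, by less than the spread within either genotype. The means were 20.6 ± 3.79 and 12.3 ± 2.89 CPM, or 59.5% of the Baf155WT mean. This was a log2 fold change of -0.76 (SE 0.18), and it was -0.59 within MS13.

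*Cish* and *Socs2* ranked 5 of the 6 mice in the same order, and the exception was the MS13 Baf155WT mouse. The MS13 Baf155WT mouse had the highest *Cish* of all and the lowest *Socs2* of its genotype, and the ratio of *Cish* to *Socs2* CPM was 2.2 in it and 1 and 0.904 in the MS15 Baf155WT mice. In Baf155ΔMF mice this ratio was 0.429 and 0.298 in MS13 and 0.951 in MS14, so the MS14 mouse lay between the MS15 Baf155WT mice in this ratio and the MS13 mice lay below them. Set against the receptor, *Cish* per *Ghr* was 0.0996 to 0.188 in Baf155WT and 0.0180 to 0.0779 in Baf155ΔMF mice, and *Socs2* per *Ghr* was 0.0855 to 0.140 and 0.0420 to 0.0819. These ratios have no meaning as levels, because the genes differ in length, and serve only to compare mice.

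**Figure D2:**
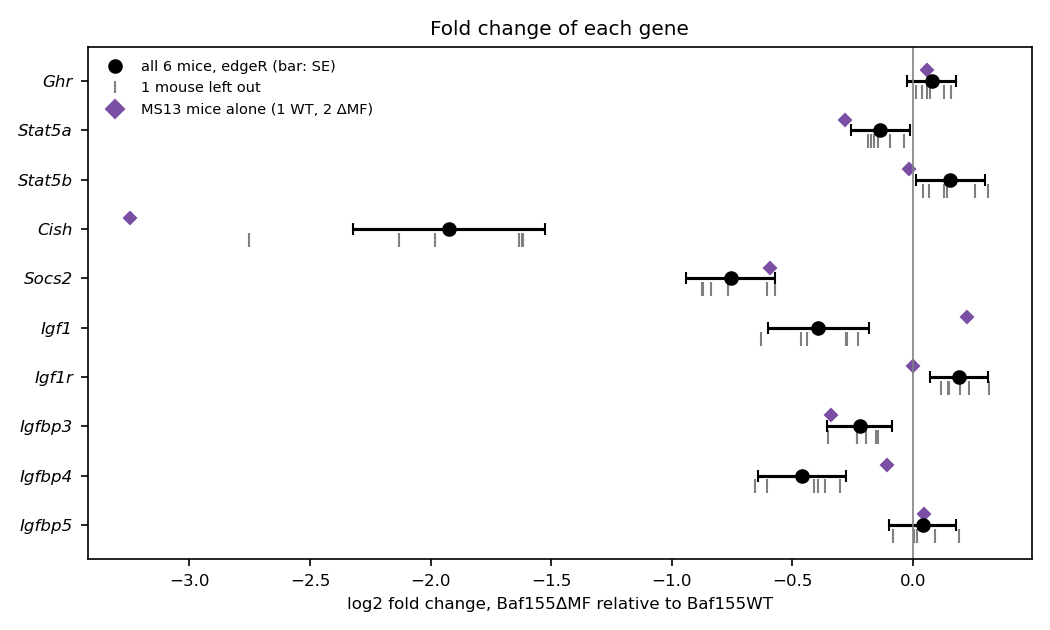
Log2 fold change of each gene in Baf155ΔMF relative to Baf155WT muscle. Black points and bars are the edgeR estimate and its SE over 6 mice, grey ticks the estimates with 1 mouse left out, and diamonds the ratio within the MS13 mice (1 Baf155WT, 2 Baf155ΔMF). *Cish* (-1.92) and *Socs2* (-0.76), chosen as lower, do not overlap between genotypes, so each of their marks had to lie below 0. *Igf1* lies at -0.39 over all mice and at 0.22 within MS13.

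*Igf1* (chr10:87858265-87937042), the growth factor, varied mainly among the Baf155WT mice. Its expression was 29.5, 56.5 and 54.3 CPM in Baf155WT mice and 29.8, 39.1 and 38.4 CPM in Baf155ΔMF mice. The MS13 Baf155WT mouse was the lowest of all 6, and the mean of the MS15 Baf155WT mice was 1.88 times its value. Its log2 fold change was -0.39 (SE 0.21, 95% interval -0.85 to 0.07, adjusted p = 0.631, edgeR). It was 0.22 within MS13 and -0.63 without the MS13 Baf155WT mouse, where the adjusted p was 0.00459 in edgeR and 955 genes passed this limit. Without that mouse the genotypes shared no title prefix. Genotype and prefix therefore cannot be told apart in any value given without it, for this or other genes. *Igf1* overlaps the antisense gene *Igf1os*, and whether its counts were kept apart by strand is not given.

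*Igf1r*, the IGF1 receptor (chr7:67952827-68233668), was 31.1, 23.7 and 25.1 CPM in Baf155WT mice and 32.1, 30.1 and 28.7 CPM in Baf155ΔMF mice. The Baf155ΔMF values lay above the MS15 Baf155WT values and on both sides of the MS13 Baf155WT value. The log2 fold change was 0.19 (SE 0.12, 95% interval -0.07 to 0.46, adjusted p = 0.666, edgeR), and within MS13 it was 0.0015.

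The binding proteins differed from one another in their pattern over the mice. *Igfbp5* (chr1:72857932-72874884), the main binding protein transcript of muscle in these data, was 514, 565 and 514 CPM in Baf155WT mice and 637, 426 and 577 CPM in Baf155ΔMF mice. The Baf155ΔMF mice spread to both sides of the Baf155WT mice. The log2 fold change of *Igfbp5* was 0.04 (SE 0.14, 95% interval -0.26 to 0.34, adjusted p = 0.939, edgeR), and it was 0.05 within MS13. *Igfbp3* (chr11:7206086-7213923), the main carrier of IGF1 in blood, was 20.8, 15.4 and 20.6 CPM in Baf155WT mice and 16.4, 16.4 and 15.7 CPM in Baf155ΔMF mice. An MS15 Baf155WT mouse was the lowest, and the Baf155ΔMF mice were nearly alike. Its log2 fold change was -0.22 (SE 0.13, 95% interval -0.52 to 0.07, adjusted p = 0.657, edgeR), with -0.34 within MS13.

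*Igfbp4* (chr11:99041244-99054392), a binding protein that holds IGF1 off its receptor until it is cleaved, is the gene of the 8 that passed an unadjusted p under 0.05. Its expression was 55.6, 94.1 and 85.8 CPM in Baf155WT mice and 53.4, 49.7 and 68.6 CPM in Baf155ΔMF mice. As for *Igf1*, the MS15 Baf155WT mice were the highest, at 1.62 times the MS13 Baf155WT mouse, which lay among the Baf155ΔMF mice. The log2 fold change was -0.46 (SE 0.18, 95% interval -0.86 to -0.06), with an unadjusted p of 0.0279 and an adjusted p of 0.601 in edgeR. It was -0.11 within MS13, and -0.65 with an adjusted p of 0.00461 in edgeR without the MS13 Baf155WT mouse. As for *Igf1*, the genotypes shared no title prefix without that mouse. *Igfbp5* made up 82.9% to 87.1% of the summed CPM of the 3 binding proteins in Baf155WT mice and 86.5% to 90.1% in Baf155ΔMF mice.

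*Igf1* and *Igfbp4* are also expressed by cells other than fibres, and the summed markers of such cells are given beside them. The 8 macrophage markers summed to 126, 361 and 294 CPM in Baf155WT mice and 115, 114 and 192 CPM in Baf155ΔMF mice. Each of the 8 had an unadjusted p under 0.05 and a lower mean in Baf155ΔMF muscle, as had 4.6% of all genes (median log2 fold change -0.90, smallest adjusted p = 0.601, edgeR), and none was without overlap between genotypes. The 6 markers of fibro-adipogenic progenitors, the connective tissue cells of muscle, summed to 1637, 2042 and 2002 CPM in Baf155WT and 1586, 1467 and 2233 CPM in Baf155ΔMF mice. Of these 6, 4 had a log2 fold change below 0, whereas those of *Col1a1* (0.36) and *Col3a1* (0.31) were above 0. For the sums of both lists the MS15 Baf155WT mice were above the MS13 Baf155WT mouse, as for *Igf1* and *Igfbp4*. Of the progenitor markers, *Col1a1* had the reverse order, with 242 CPM in the MS13 Baf155WT mouse and 157.5 and 231.6 CPM in the MS15 mice. The MS13 value of *Col3a1* lay between those of the MS15 mice. The part of these cells in the *Igf1* and *Igfbp4* values was not tested, and in whole muscle fewer cells of a type and less RNA per cell cannot be told apart.

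**Figure D3:**
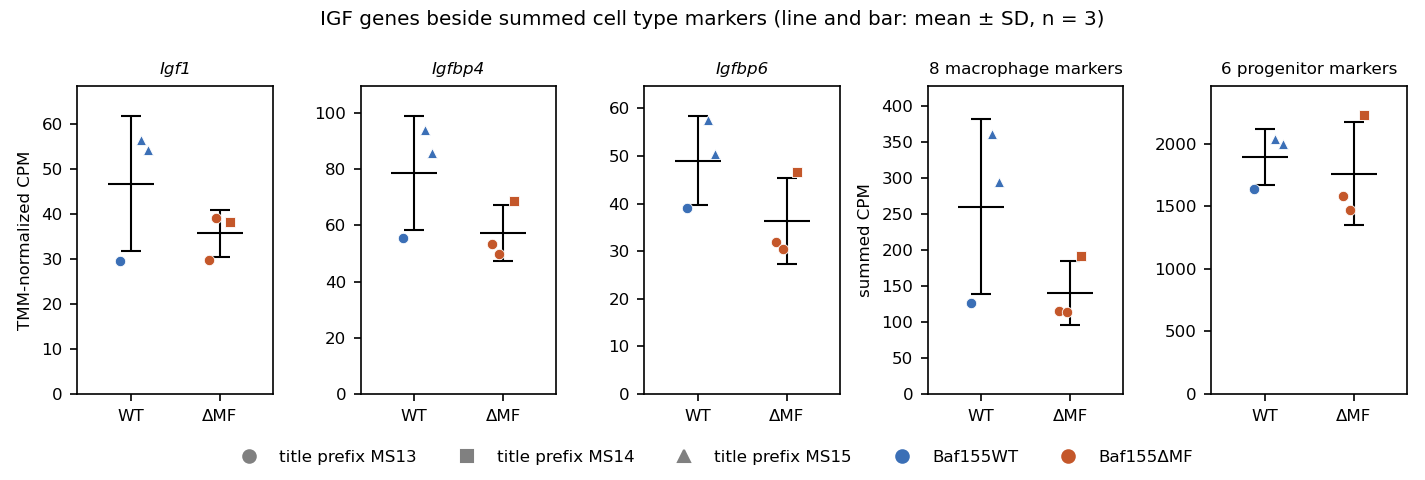
*Igf1*, *Igfbp4* and *Igfbp6* in TMM-normalized CPM beside the summed CPM of 8 macrophage markers and 6 markers of fibro-adipogenic progenitors, with 1 point per mouse and the mean ± SD of 3 mice on axes that start at 0. In each panel the MS15 Baf155WT mice (triangles) lie above the MS13 Baf155WT mouse (circle).

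Adipocyte and leukocyte markers had the same order among the Baf155WT mice. The 4 adipocyte markers summed to 23.7, 37.6 and 37.5 CPM in Baf155WT and 25.5, 16.8 and 23.3 CPM in Baf155ΔMF mice. The leukocyte markers summed to 7.29, 19.7 and 17.4 CPM in Baf155WT and 8.97, 8.10 and 8.07 CPM in Baf155ΔMF mice. In both lists the MS15 Baf155WT mice were the highest of all. Endothelial markers had the reverse order among the Baf155WT mice. The 5 endothelial markers summed to 284, 216 and 223 CPM in Baf155WT and 285, 301 and 281 CPM in Baf155ΔMF mice, of which 2 were without overlap and higher in Baf155ΔMF muscle (5.2% of all genes). Erythroid markers summed to 192.5 to 356 and 113 to 268 CPM. Markers of smooth muscle and pericytes (585.5 to 755.6 and 715 to 855.5 CPM), Schwann cells (21.8 to 33.3 and 23.6 to 34.7 CPM) and tenocytes (14.1, 16.4 and 17.9 against 14.2, 13.6 and 15.9 CPM) overlapped between genotypes. No marker was at 0 in all mice. Among the Baf155WT mice, *Cish* was highest and *Socs2* lowest in the MS13 mouse, where the macrophage markers were lowest.

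To compare levels between genes, CPM were divided by the length of each gene's exons in kilobases (GENCODE M21 exon union), which assumes that the annotated exons are those expressed. In Baf155WT muscle the order of levels was *Igfbp5* (88.5 ± 4.91 CPM per kb), *Stat5b* (50.5 ± 9.52), *Ghr* (20.6 ± 1.33), *Igfbp4* (17.8 ± 4.59), *Igfbp3* (6.05 ± 0.983), *Igf1* (4.73 ± 1.51), *Cish* (4.17 ± 1.51), *Stat5a* (2.18 ± 0.251), *Socs2* (2.17 ± 0.397) and *Igf1r* (1.59 ± 0.234). Values overlapped between *Ghr* and *Igfbp4*, between *Igfbp3* and *Igf1*, between *Igf1* and *Cish*, between *Stat5a* and *Socs2* and between *Socs2* and *Igf1r*. In Baf155ΔMF muscle the first 6 genes kept their order, from *Igfbp5* (91.0 ± 18.1 CPM per kb) to *Igf1* (3.61 ± 0.524), and none of their values overlapped with those of the next gene. *Stat5a* (1.98 ± 0.0952) and *Igf1r* (1.8 ± 0.104), which overlapped, then had higher means than the inhibitors, with *Socs2* at 1.29 ± 0.303 and *Cish* at 1.11 ± 0.865 CPM per kb. The *Cish* values of the Baf155ΔMF mice ran from 0.599 to 2.11 CPM per kb and overlapped with those of *Stat5a*, *Igf1r* and *Socs2*, and the highest, in the MS14 mouse, was above all values of these 3 genes. The last place of *Cish* by mean level therefore rests on the MS13 mice.

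Of 63 other genes of the pathway in 6 lists, 55 were tested. None had an adjusted p under 0.05 in edgeR or limma-voom, and 2, *Socs1* and *Socs3*, were among the 22 genes that passed in DESeq2. At an unadjusted p under 0.05, 5 of the 55 were lower and 0 higher in edgeR (4.6% and 3.35% of all genes), and DESeq2 and limma-voom passed 6 and 5. The 5 include *Socs1* and *Socs3*, which the study had already reported as lower in these same mice. Their place in these counts is therefore no independent result. The median log2 fold change of the 55 genes was 0.01.

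The 11 genes that link the receptor to its kinases and adaptors had a median log2 fold change of 0.02, and none passed an unadjusted p under 0.05. The most expressed were *Irs1*, an adaptor of insulin and growth hormone signalling, with 230 ± 9.37 and 200.3 ± 24.2 CPM (log2 fold change -0.20, adjusted p = 0.627, edgeR), and the kinase *Jak1* with 169 ± 11.5 and 184 ± 9.70 CPM (0.12, adjusted p = 0.702, edgeR). The other STATs (4 of 5 tested, median -0.06) held 1 gene with an unadjusted p under 0.05, the interferon signalling factor *Stat2*, at 6.61, 13.3 and 12.1 CPM in Baf155WT and 7.37, 6.44 and 7.13 CPM in Baf155ΔMF mice (-0.62, adjusted p = 0.601, edgeR). Its MS13 Baf155WT value lay among the Baf155ΔMF values, and its log2 ratio within MS13 was 0.06. *Stat2* passed an adjusted p of 0.05 only without that mouse, where the genotypes shared no title prefix. *Stat3* was 51.0 ± 8.77 and 55.1 ± 4.28 CPM (0.11, adjusted p = 0.802, edgeR), and *Stat6* was 33.3 ± 3.58 and 31.9 ± 2.56 CPM (-0.06, adjusted p = 0.879, edgeR).

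Among 12 further inhibitors and phosphatases (median log2 fold change 0.06), those with an unadjusted p under 0.05 were *Socs1* (-2.18, adjusted p = 0.216, edgeR) and *Socs3* (-1.32, adjusted p = 0.436, edgeR), which are inhibitors in the same family as *Cish* and *Socs2*. Both were also without overlap between genotypes (5.57% of all genes when lower), and their log2 ratios within MS13 were -2.99 and -2.06. Of all 55 pathway genes tested, 3 were lower without overlap, *Socs1*, *Socs3* and *Irs1*. Another 2, *Grb2* and *Ptpn11*, were higher without overlap (5.2% of all genes). *Ptpn11*, a phosphatase that acts in growth factor signalling, was 104 ± 8.94 and 119 ± 4.50 CPM (0.19, adjusted p = 0.622, edgeR). *Socs7* was 81.7 ± 0.660 and 87.5 ± 8.57 CPM (0.10, adjusted p = 0.76, edgeR). Other receptors that can use STAT5 (5 of 9 tested, median -0.13) held no gene with an unadjusted p under 0.05, and the most expressed were the leptin receptor *Lepr* (-0.15, adjusted p = 0.763, edgeR) and *Il15ra* (-0.13, adjusted p = 0.851, edgeR).

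Of the genes reported elsewhere as STAT5 targets, 12 of 13 were tested and their median log2 fold change was -0.02. The one with an unadjusted p under 0.05 was the kinase gene *Pim1*, with 14.6, 26.2 and 31.9 CPM in Baf155WT and 14.1, 17.3 and 10.5 CPM in Baf155ΔMF mice (-0.79, adjusted p = 0.601, edgeR). As for *Igfbp4*, the MS13 Baf155WT mouse lay among the Baf155ΔMF mice, and the log2 ratio of *Pim1* within MS13 was 0.11. *Pim1* passed an adjusted p of 0.05 in edgeR only without that mouse, where the genotypes shared no title prefix. The most expressed targets were *Bcl6*, a repressor that shares binding sites with STAT5 (0.16, adjusted p = 0.789, edgeR), and the survival gene *Mcl1* (0.03, adjusted p = 0.926, edgeR). 

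Of the remaining IGF genes, 11 of 13 were tested and their median log2 fold change was -0.04. *Igfbp6*, a binding protein with a preference for IGF2, was 39.1, 57.5 and 50.5 CPM in Baf155WT and 31.9, 30.4 and 46.7 CPM in Baf155ΔMF mice (-0.44, unadjusted p under 0.05, adjusted p = 0.601, edgeR), with -0.33 within MS13 and an adjusted p under 0.05 only without the MS13 Baf155WT mouse. The insulin receptor *Insr* was 93.7 ± 19.4 and 116 ± 16.4 CPM (0.31, adjusted p = 0.622, edgeR) and also passed only without that mouse, and *Igf2r* was 167 ± 12.5 and 184 ± 23.1 CPM (0.14, adjusted p = 0.716, edgeR). Without that mouse the genotypes shared no title prefix.

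**Figure D4:**
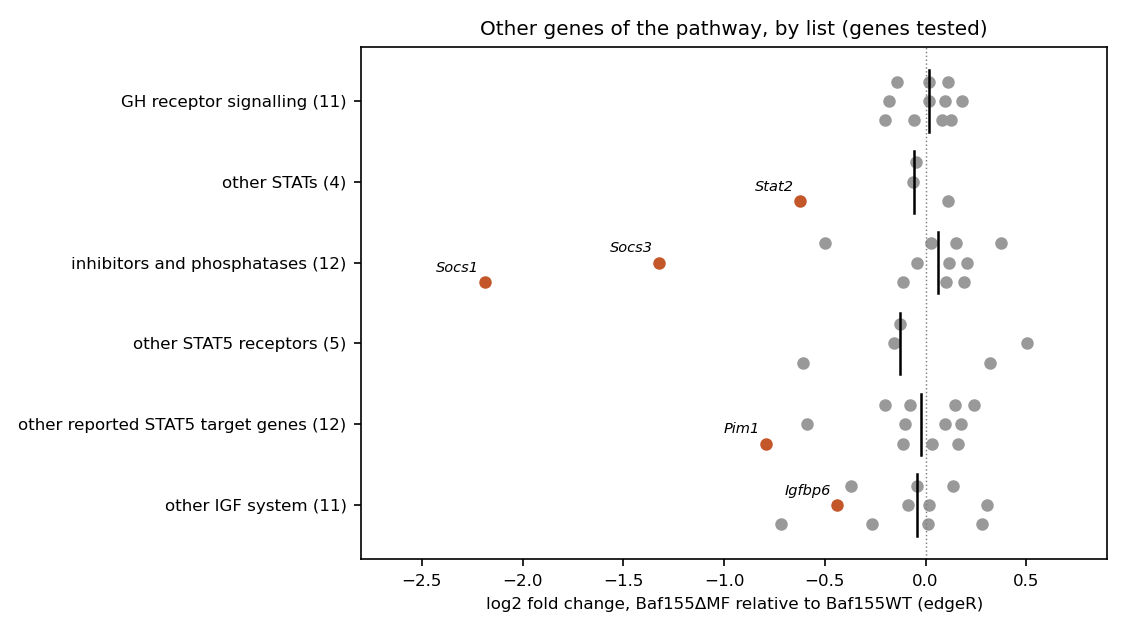
Log2 fold change from edgeR of the 55 tested pathway genes other than the 10 members, grouped in 6 lists on the vertical axis, with the number tested in parentheses. Each point is a gene, vertical lines are list medians, and coloured, named points have an unadjusted p under 0.05. The medians lie between -0.13 and 0.06, and the named genes, all below 0, are *Stat2*, *Socs1*, *Socs3*, *Pim1* and *Igfbp6*. The study had already reported *Socs1* and *Socs3* as lower in these same mice.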

How the data were processed

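The deposited table holds estimated counts (expected counts) per gene and mouse, which the authors made without normalization. The submitters' processing notes name CASAVA 1.8.2, cutadapt 1.10, Bowtie2 2.2.7, TopHat2 2.1.1, RSEM 1.2.30 and mm10 (GRCm38). Libraries were stranded (TruSeq Stranded Total RNA). The annotation and the strand setting of the counting are not given in the sources used here. Estimates were fractional, by more than 1e-06, for 2919 genes (14.1%) and were rounded.

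Genes were kept by filterByExpr (minimum count 10, minimum total count 15) in edgeR 4.0.16 (R 4.3.3), which left 12116 genes. Genotypes were compared over 6 mice with TMM scaling and the quasi-likelihood F test, with Benjamini-Hochberg adjustment over these genes, and the fit was tested on simulated data. Intervals are 95%. DESeq2 1.42.0, limma 3.58.1, other scalings and filters, a covariate for the title prefix and the omission of each mouse in turn were alternatives. Named genes were the 10 members, *Smarcc1* and, in each list, those with an unadjusted p under 0.05 and the 2 most expressed. Other genes are named only to give the members of a count or of a marker sum. Members and lists were chosen with earlier results of these data known. The labels treat mice as replicates, 1 library each.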

Additional observations from a re-analysis of the deposited data

How the results depend on the processing

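*Cish* and *Socs2* stayed lower in Baf155ΔMF muscle under each alternative that gave a value. Both were chosen as lower and did not overlap between genotypes. Their direction with 1 mouse left out and within MS13 was therefore fixed in advance and gives no support. The log2 fold change of *Cish* was -3.24 with a covariate for the title prefix and -2.75 to -1.62 when 1 mouse was left out, and that of *Socs2* was -0.59 and -0.88 to -0.57. Of the other genes, *Igf1* reversed to 0.22 with the prefix covariate and to 0.22 within MS13, and *Stat5b* to -0.016 in both. *Igfbp5* reversed to -0.022 with library size alone and ranged from -0.084, without the MS13-1 Baf155ΔMF mouse, to 0.193 when 1 mouse was left out. Without the MS13 Baf155WT mouse, *Igf1* (-0.63) and *Igfbp4* (-0.65) passed an adjusted p of 0.05, which neither did in the other alternatives with a test. In that fit the genotypes shared no title prefix, so genotype and prefix cannot be told apart. The causes were not tested. The number of members without overlap, 2 in the report, was 4 with library size alone, which added *Stat5a* and *Igfbp3*. It was 3 with upper-quartile scaling, which added *Stat5a*. With 1 mouse left out it was 3 to 5, where fewer mice make such a gap more frequent. Library size alone shifted the median of all genes to -0.06. Of the other pathway genes, 0 passed an adjusted p of 0.05 in the report, 1 with no filter beyond 1 count (*Socs1*), 2 with the prefix covariate or DESeq2 (*Socs1* and *Socs3*), and 0 to 7 when 1 mouse was left out, with 7 without the MS13 Baf155WT mouse (*Socs1*, *Socs3*, *Stat2*, *Pim1* and *Igfbp6* lower, *Insr* and *Pim3* higher, with *Pim3* named only for this count). Over all genes, 3 passed in the report, 17 with no filter beyond 1 count, 16 with the prefix covariate, 22 in DESeq2, 5 in limma-voom and 0 to 955 when 1 mouse was left out, with 955 without the MS13 Baf155WT mouse and 0 without the MS15-2 Baf155WT or the MS13-2 Baf155ΔMF mouse. The prefix covariate gives no count of overlap. No paired analysis was possible because the labels name no pairs of mice across genotypes, and the prefix covariate rests on the MS13 mice alone. With 3 mice per genotype, the 95% intervals of the 8 genes reached as low as -0.86 (*Igfbp4*) and as high as 0.47 (*Stat5b*) on the log2 scale.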
